A study of Mus musculus with 9 samples.

Results

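The amino acid transporter genes described here are 59 measured genes whose symbols place them in the solute carrier families Slc1a, Slc3a, Slc6a, Slc7a, Slc36a, Slc38a and Slc43a, of 46078 genes in the count table. They were chosen by symbol, with 1 row per symbol, and comprise 7 Slc1, 2 Slc3, 18 Slc6, 15 Slc7, 4 Slc36, 10 Slc38 and 3 Slc43 genes. Slc38a6 was left out by rule, and Slc6a20a and Slc6a20b because their symbols do not end in a number. The families are described without these genes. Ovaries of 5 wild-type (WT) mice and 4 mice lacking estrogen receptor β (ERβKO) were compared by RNA-seq, which asks how gene expression in the ovary differs when ERβ is lost. All mice were on a C57BL/6J background, and the labels call the samples of a genotype biological replicates and every ovary untreated. The ERβKO mice carried a germline deletion of exon 3 of Esr2, made by crossing floxed mice with a Rosa26-Cre deleter line, so the receptor was missing in all tissues, and the WT mice were offspring from heterozygous breeding. Mice were 4 to 20 weeks old across all experiments, with no age given for single ovaries and no staging by estrous cycle. A protocol attached to every sample describes a high-fat or control diet and injections of an ERβ ligand without assigning mice to them, and it was not used for grouping.

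Amino acids do not cross membranes freely, and these families carry them into cells, out of cells and across the lysosomal membrane, coupled to sodium, protons or the exchange of another amino acid. Slc7 light chains reach the cell surface bound to a heavy chain, Slc3a2 (4F2hc) or Slc3a1 (rBAT), which anchors the pair and does not transport by itself. In follicles, granulosa cells take up amino acids that the oocyte imports poorly and pass them on through gap junctions. The family names are broader than the label: Slc6a2, Slc6a3 and Slc6a4 carry monoamines, Slc6a8 carries creatine, Slc43a3 carries purine nucleobases, and the substrates of some members are poorly known.

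Depth was similar in the genotypes, with 12353740 to 16519975 counted fragments in the WT libraries (median 14880505) and 13088728 to 18717510 in the ERβKO libraries (median 15428802). Esr2 itself was at 12.4 to 23.9 FPKM (fragments counted per gene, scaled to gene length and library depth) in WT and 10.5 to 23.7 FPKM in ERβKO ovaries, a log2 fold change of -0.02 with an adjusted p of 0.966, and its count over the whole gene, which includes the remaining exons, did not check the labels. Along principal component 1 of the scaled log2 counts, which held 35.9% of the variance, WT replicate 2 stood at 9.43, where the remaining WT ovaries ran from -43.8 to -15.6 and the ERβKO ovaries from 19.4 to 35.3. The summed markers of granulosa, luteal and theca cells were high in every library, as the tissue label asks, and several marker sums moved with the genotype. The summed FPKM of 10 granulosa cell markers ran from 894.5 to 1085 in WT and from 1134 to 1531 in ERβKO ovaries, and that of 7 theca cell markers from 630.2 to 915.5 and from 975.1 to 1820. Most of the theca sum was Aldh1a1, and the theca markers did not move together, with 4 of 6 tested log2 fold changes above 0 and a median of 0.12. For 10 luteal markers the sums were 2872 to 6699 and 2611 to 3932, with 9 of 10 log2 fold changes below 0. For 8 oocyte markers they were 35.4 to 111.6 and 75.3 to 145.2, for 8 macrophage markers 196.5 to 370.2 and 240.6 to 392.6, and for 7 oviduct epithelium markers 1391 to 2523 and 1650 to 2069. The oviduct sum was above the granulosa sum in every library, and most of it was Ovgp1, at 1731 FPKM on average. The share of oviduct tissue in the samples was not tested. The 7 adipocyte markers summed to 137.0 to 261.7 in WT ovaries and to 1023, 348.5, 438.3 and 157.1 in ERβKO replicates 1 to 4. No marker of any list was at 0 in every ovary. Values per ovary are given in the order of WT replicates 1 to 5 and ERβKO replicates 1 to 4. In whole ovaries, fewer cells of a type and less RNA per cell cannot be told apart.

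Of the 59 genes, 35 had a mean over 1 FPKM in at least 1 genotype, 11 were tested at lower levels and 13 failed edgeR's filter on low counts. None of those 13 had more than 13 counts in any ovary, and Slc6a18 and Slc7a12 had 0 counts in all, which allows up to 3 counts per library by counting error alone. They include the dopamine transporter Slc6a3, the kidney and gut carrier Slc6a19 and the cystine carrier Slc7a9. The 59 genes summed to 430.1 ± 27.6 FPKM across WT (SD, n = 5) and 453.1 ± 29.8 FPKM across ERβKO ovaries (SD, n = 4). The 5 with the highest mean, Slc3a2, Slc7a8, Slc6a6, Slc38a2 and Slc1a5, held 45.4% of that sum over all ovaries. The heavy chain Slc3a2 led at 50.2 ± 6.7 FPKM across WT (SD, n = 5) and 59.7 ± 6.5 FPKM across ERβKO ovaries (SD, n = 4). Slc38a2, a sodium-coupled carrier of small neutral amino acids, lay between 34.5 and 44.5 FPKM in all 9 ovaries.

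**Figure D1:**
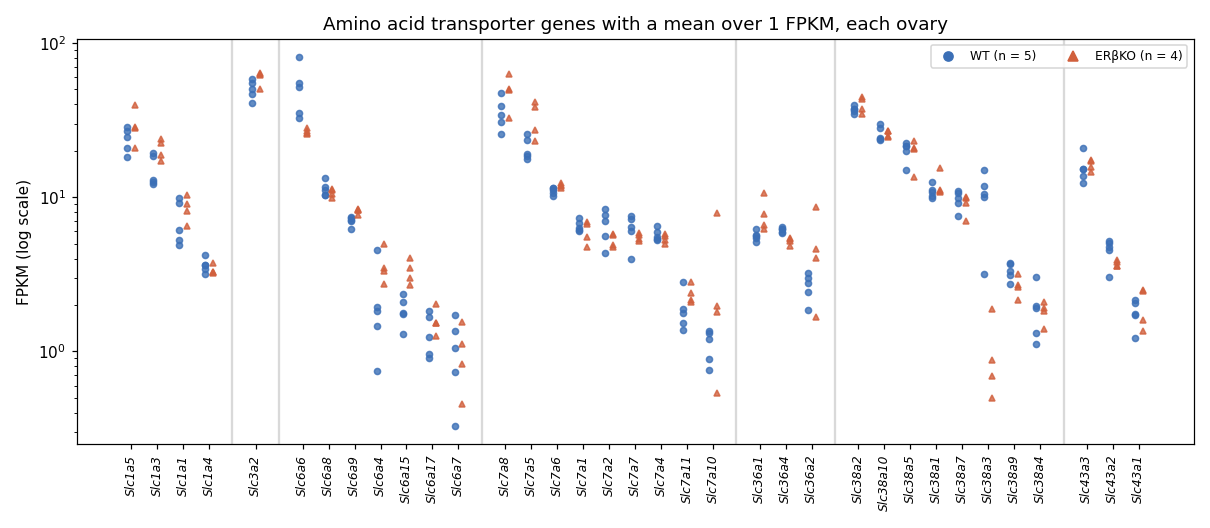
Level of each of the 35 genes with a mean over 1 FPKM in at least 1 genotype, in FPKM on a log axis, with 1 point per ovary (circles WT, n = 5, triangles ERβKO, n = 4) and genes ordered by level within families. Slc38a3 is the gene whose groups stand furthest apart, at 3.18 to 15.1 FPKM in WT and 0.499 to 1.89 FPKM in ERβKO ovaries.

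1 of the 46 tested genes, the glutamine carrier Slc38a3, was differentially expressed between ERβKO and WT ovaries, and it was lower in ERβKO. A gene was called when its adjusted p was under 0.05 by the edgeR quasi-likelihood test, after Benjamini-Hochberg adjustment over all tested genes, its absolute log2 fold change was over 0.4 and its mean was over 1 FPKM in at least 1 genotype. By these criteria 0 of the 46 were higher, beside 0.915% of the 16722 genes tested, and 2.17% were lower, beside 0.801%. With the adjusted p alone, Slc36a3 and Slc36a4 were lower as well, and the 3 genes are 6.52% of the 46, beside 0.963% of all genes. Of these, Slc36a3 passed the filter on low counts through its WT ovaries alone. At an unadjusted p under 0.05, 14 of the 46 genes differed (30.4%), 7 in each direction, beside 3315 of all genes (19.8%). DESeq2 on the same counts and criteria called 2 higher (Slc6a15 and Slc7a5) and 3 lower (Slc38a3, Slc6a6 and Slc7a2) of 47 genes it tested. These are 4.26% and 6.38%, beside 2.19% and 2.47% of all genes.

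The levels of 7 of the 35 genes over 1 FPKM did not overlap between the genotypes. All ERβKO ovaries were above all WT ovaries for Slc6a9, Slc6a15, Slc7a6 and Slc36a1, which is 11.4% of the 35, beside 4.56% of all tested genes over 1 FPKM. They were below for Slc6a6, Slc36a4 and Slc38a3, which is 8.57%, beside 3.59%. The log2 fold changes of the 46 genes had a median of 0.06, against -0.000894 for all tested genes, with 24 above 0 and 22 below. The 30 members outside the rule for named genes include 19 tested genes, with log2 fold changes from -0.34 to 0.26 and adjusted p from 0.186 to 0.976.

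**Figure D2:**
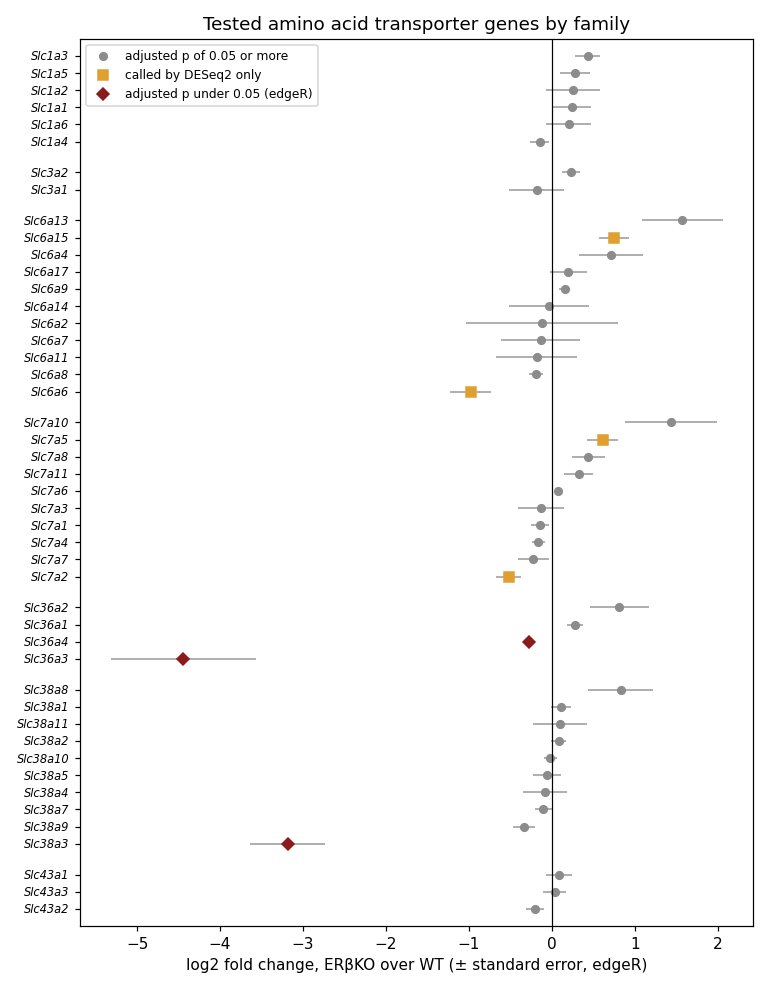
Log2 fold change of each of the 46 tested genes, ERβKO over WT, by family, with bars for the standard error. Diamonds mark an edgeR adjusted p under 0.05 (Slc38a3, Slc36a3 and Slc36a4, all below 0), squares the genes called by DESeq2 only (Slc6a15, Slc7a5, Slc6a6 and Slc7a2) and grey circles the rest.

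The Slc38 family holds sodium-coupled carriers of glutamine and other neutral amino acids, and Slc38a3 (SNAT3, ENSMUSG00000010064, chromosome 9 of GRCm38 from 107650634 to 107669530, minus strand) moves glutamine, asparagine and histidine in either direction. Its level was 15.1, 9.99, 3.18, 10.5 and 11.8 FPKM in the WT ovaries and 1.89, 0.499, 0.692 and 0.875 FPKM in the ERβKO ovaries. All 4 ERβKO values were below all 5 WT values, and WT replicate 3 was the lowest of the WT group. The counts behind these values were 569, 563, 162, 544 and 530 in WT and 104, 38, 35 and 55 in ERβKO ovaries. The mean level in WT was 10.2 times that in ERβKO ovaries. Slc38a3 fell by 3.19 on the log2 scale (standard error 0.45) and the adjusted p was 0.0104 by the edgeR quasi-likelihood test after Benjamini-Hochberg adjustment. The two-sided exact permutation test of the FPKM values gave p = 0.0159, the smallest that groups of 5 and 4 ovaries allow. With each ovary left out in turn, the log2 fold change stayed between -3.55 and -2.96 and the adjusted p between 0.000961 and 0.0445. WT replicates 4 and 5 carry library numbers from a second series in the labels that holds no ERβKO library, and among the other 7 libraries the log2 fold change was -3.03 with an adjusted p of 0.0650. The summed luteal markers, at 6069, 2872, 3882, 4141 and 6699 FPKM in the WT ovaries and 2611, 2668, 3932 and 2780 FPKM in the ERβKO ovaries, were also mostly lower in ERβKO ovaries, and their part in the level of Slc38a3 was not tested.

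The other Slc38 genes lay closer together. Slc38a2 was at 36.9 ± 1.7 FPKM across WT (SD, n = 5) and 39.9 ± 4.8 FPKM across ERβKO ovaries (SD, n = 4), and the little characterised Slc38a10 at 25.9 ± 2.9 and 25.8 ± 1.1 FPKM. Slc38a5, which like Slc38a3 carries glutamine and histidine, ranged from 13.6 to 23.0 FPKM over the 9 ovaries with overlapping groups. Slc38a8 had the next largest log2 fold change of the family, 0.83 (standard error 0.39, adjusted p = 0.274 with edgeR), but rested on 4 to 11 counts per WT ovary and 11 to 20 per ERβKO ovary. The family's summed FPKM was 106.3 to 129.8 over the 9 ovaries, with overlapping groups.

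Slc36 genes encode proton-coupled carriers of small amino acids, at the cell surface and on lysosomes, and 3 of the 4 lie side by side on chromosome 11. Slc36a3 (ENSMUSG00000049491, chromosome 11 of GRCm38 from 55124815 to 55151708, minus strand) was expressed at a low level, 0.920, 0.206, 0.482, 0.933 and 1.55 FPKM in WT replicates 1 to 5, and at 0, 0, 0.132 and 0.0574 FPKM in the ERβKO ovaries. All ERβKO ovaries were below all WT ovaries, with 0 to 4 counts against 11 to 61. Its log2 fold change was -4.44 (standard error 0.88, adjusted p = 0.0345 with edgeR), and at so few counts its size depends on the prior count of the fit. Its WT mean of 0.818 FPKM was under the level required for a call, and the adjusted p was 0.0648 to 0.115 without ERβKO replicate 1, 2 or 4 or WT replicate 1 or 5. Slc36a3 was tested only because its WT counts passed the filter on low counts. Without WT replicate 3 or 4 it failed that filter and had no adjusted p.

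Slc36a4 (ENSMUSG00000043885, chromosome 9 from 15709738 to 15742384, plus strand), a high-affinity carrier of proline and tryptophan, was at 6.41, 6.23, 6.21, 5.82 and 5.94 FPKM in the WT ovaries and 5.32, 5.45, 4.83 and 5.21 FPKM in the ERβKO ovaries. The groups did not overlap, and the replicates of each genotype lay close together. The two-sided exact permutation test gave p = 0.0159, the value that any groups of this size without overlap give. Slc36a4 fell by 0.28 on the log2 scale (standard error 0.06, adjusted p = 0.0468 with edgeR), under the size required for a call, and the adjusted p was over 0.05 (0.0559 to 0.117) whichever ovary was left out, except WT replicate 2 (0.0381).

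The promoters of these 2 genes are shown because theirs are the RefSeq promoters at hand for genes with an adjusted p under 0.05 (250 bases before the start of the gene and 50 after, GRCm38.p6). They were read for 3 motifs on both strands: the binding site of NR5A receptors (AAGGTCA), the palindromic estrogen response element (GGTCANNNTGACC) and the amino acid response element (TGATGNAA) through which ATF4 and C/EBP proteins act. Neither promoter held any of them, so no letter is in capitals.
Slc36a3, chr11:55151659-55151958, minus strand: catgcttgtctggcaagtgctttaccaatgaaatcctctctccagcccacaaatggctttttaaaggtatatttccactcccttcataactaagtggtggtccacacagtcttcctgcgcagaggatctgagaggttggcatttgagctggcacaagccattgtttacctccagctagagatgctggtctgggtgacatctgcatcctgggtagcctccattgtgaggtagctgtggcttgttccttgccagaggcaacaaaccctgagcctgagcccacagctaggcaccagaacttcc
Slc36a4, chr9:15709488-15709787, plus strand: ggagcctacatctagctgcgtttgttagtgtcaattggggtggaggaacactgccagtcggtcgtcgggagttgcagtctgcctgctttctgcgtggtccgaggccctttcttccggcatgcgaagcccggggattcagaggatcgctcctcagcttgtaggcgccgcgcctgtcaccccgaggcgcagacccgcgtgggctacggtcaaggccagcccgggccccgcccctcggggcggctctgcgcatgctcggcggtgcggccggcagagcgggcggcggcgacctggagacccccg
Of 32851 RefSeq promoters, 4.72% held AAGGTCA, 0.07% held GGTCANNNTGACC and 3.97% held TGATGNAA. Among 62 promoters of 41 of the transporter genes the shares were 3.23% (Slc6a11 and Slc6a13), 0% and 6.45% (Slc1a4, Slc7a7 and Slc7a11). The motifs do not overlap one another in the promoters printed here. A match or its absence is a description of the letters alone and not of binding by a receptor, which was not tested.

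The 2 remaining Slc36 genes had a higher mean in ERβKO than in WT ovaries without passing the test. Slc36a1, the lysosomal carrier PAT1, was at 5.09 to 6.19 FPKM in WT and 6.20, 7.80, 10.7 and 6.55 FPKM in ERβKO ovaries, groups that barely stood apart, and its log2 fold change from the counts was 0.28 (adjusted p = 0.135 with edgeR). Slc36a2, the glycine and proline carrier PAT2 found on brown adipocytes, was at 3.20, 2.99, 2.76, 2.42 and 1.86 FPKM in the WT ovaries and 8.61, 4.62, 4.03 and 1.68 FPKM in the ERβKO ovaries. ERβKO replicate 1 was the highest and ERβKO replicate 4 the lowest of all 9. Its log2 fold change of 0.82 (standard error 0.35, adjusted p = 0.233 with edgeR) came to 0.37 without ERβKO replicate 1, the ovary with the most adipocyte marker RNA. The part of adipocytes in the level of Slc36a2 was not tested.

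**Figure D3:**
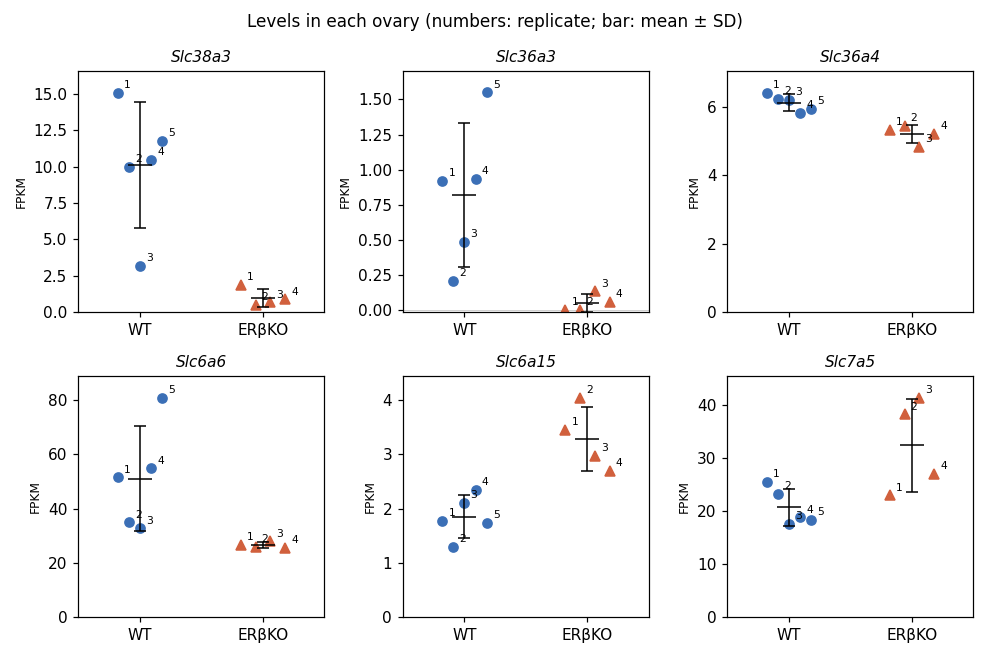
FPKM per ovary of 6 transporter genes, with the replicate number beside each point and bars for the mean ± SD (circles WT, n = 5, triangles ERβKO, n = 4). Groups stand apart for Slc38a3, Slc36a3, Slc36a4, Slc6a6 and Slc6a15 and overlap for Slc7a5, where ERβKO replicate 1 lies at 23.0 FPKM, below WT replicates 1 and 2.

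The Slc6 family, sodium- and chloride-coupled carriers of neurotransmitters and amino acids, was the only family of the 7 whose summed level did not overlap between the genotypes. The sum was 74.8, 63.1, 62.5, 82.3 and 105.2 FPKM in the WT ovaries and 55.9, 60.1, 58.3 and 54.4 FPKM in the ERβKO ovaries. Without Slc6a6 the family summed to 23.5 to 29.8 FPKM in WT and 28.9 to 34.2 FPKM in ERβKO ovaries, so the rest of the family overlapped and leaned the other way. The largest part of the full sum was Slc6a6 (ENSMUSG00000030096, chromosome 6 from 91684067 to 91759063, plus strand), which carries taurine. Slc6a6 was at 51.4, 34.9, 32.7, 54.7 and 80.6 FPKM in the WT ovaries and at 26.7, 25.9, 27.9 and 25.5 FPKM in the ERβKO ovaries. The 4 ERβKO ovaries lay close together and below all WT ovaries, which spread widely (50.8 ± 19 FPKM against 26.5 ± 1.1 FPKM, SD, n = 5 and 4). The 2 lowest WT ovaries for Slc6a6, replicates 2 and 3, are also the 2 with the lowest sum of luteal markers, but ERβKO replicate 3 had a higher luteal sum (3932 FPKM) than either and less Slc6a6, and the part of luteal cells in this level was not tested. The log2 fold change was -0.98 (standard error 0.24) and the adjusted p was 0.0658 in edgeR and 0.00198 in DESeq2, so that the call depends on the tool. It was -0.59 among the 7 libraries of the first number series, with an adjusted p of 0.148.

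Slc6a15 (ENSMUSG00000019894, chromosome 10 from 103367808 to 103419378, plus strand), a carrier of branched-chain amino acids and proline, was at 1.77, 1.30, 2.10, 2.34 and 1.74 FPKM in the WT ovaries and 3.45, 4.03, 2.97 and 2.69 FPKM in the ERβKO ovaries. All ERβKO ovaries were above all WT ovaries, by 1.78-fold on average. The two-sided exact permutation test gave p = 0.0159, which groups of this size without overlap always give. The log2 fold change was 0.75 (standard error 0.18) and the adjusted p was 0.0606 in edgeR and 0.00341 in DESeq2.

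Slc6a9 (GLYT1), the glycine carrier that oocytes use to control their volume, was at 7.02 ± 0.51 FPKM across WT (SD, n = 5) and 8.13 ± 0.32 FPKM across ERβKO ovaries (SD, n = 4). Its groups did not overlap, with a log2 fold change of 0.15 (adjusted p = 0.262 with edgeR), but 30.2% of its exonic bases lie under exons of genes on the opposite strand (B4galt2, Ccdc24 and Gm17114), whose reads cannot be told apart where counting did not use strand. The creatine carrier Slc6a8 was at 11.4 ± 1.3 and 10.7 ± 0.67 FPKM. The serotonin carrier Slc6a4 ranged from 0.749 to 4.53 FPKM in WT and from 2.72 to 4.98 FPKM in ERβKO ovaries, with WT replicate 2 inside the ERβKO range. Its log2 fold change was 0.72 (adjusted p = 0.337 with edgeR) and 1.17 without that ovary (adjusted p = 0.0351). Leaving out that ovary raised the calls over all genes from 287 to 912. Slc6a13, a carrier of GABA and taurine, had 4 to 19 counts per WT ovary and 58, 22, 22 and 11 in ERβKO replicates 1 to 4. Its log2 fold change was 1.58 (standard error 0.49) and the adjusted p was 0.116 in edgeR and 0.0483 in DESeq2, and its mean stayed under 1 FPKM in both genotypes. Slc6a13 was tested by edgeR only because its counts in ERβKO ovaries, the group where it was higher, passed the filter on low counts. Without ERβKO replicate 1 the log2 fold change was 1.04 (adjusted p = 0.271 with edgeR).

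In the Slc7 family, which holds the cationic amino acid carriers and the light chains, no gene was called by edgeR, and DESeq2 called Slc7a5 higher and Slc7a2 lower in ERβKO ovaries. Slc7a5 (LAT1, ENSMUSG00000040010, chromosome 8 from 121881150 to 121907694, minus strand) exchanges glutamine for leucine and other large neutral amino acids. It was at 25.6, 23.3, 17.7, 18.9 and 18.4 FPKM in the WT ovaries and at 23.0, 38.3, 41.4 and 27.1 FPKM in the ERβKO ovaries. ERβKO replicates 2 to 4 were above all WT ovaries and replicate 1 was within their range. The log2 fold change was 0.61 (standard error 0.18) and the adjusted p was 0.108 in edgeR and 0.0315 in DESeq2.

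Slc7a8 (LAT2), another carrier of large neutral amino acids, was the most abundant light chain, at 47.0, 39.1, 25.7, 30.9 and 34.0 FPKM in the WT ovaries and 32.7, 49.4, 62.4 and 50.3 FPKM in the ERβKO ovaries. ERβKO replicates 2 to 4 were again above all WT ovaries and replicate 1 was inside their range. Its log2 fold change was 0.44 (standard error 0.20, adjusted p = 0.259 with edgeR). The shared heavy chain Slc3a2 (ENSMUSG00000010095, chromosome 19 from 8706882 to 8723369, minus strand) was at 57.9, 55.0, 40.9, 46.7 and 50.4 FPKM in WT and 50.1, 61.6, 64.2 and 63.0 FPKM in ERβKO ovaries, and its log2 fold change was 0.23 (standard error 0.11, adjusted p = 0.284 with edgeR). The summed granulosa markers were above the WT range in all 4 ERβKO ovaries, and their part in these levels was not tested.

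The 6 light chains that pair with Slc3a2 (Slc7a5, Slc7a6, Slc7a7, Slc7a8, Slc7a10 and Slc7a11) summed to 61.9 to 92.3 FPKM in WT (76.3 ± 11.6, SD, n = 5) and 83.4 to 125 FPKM in ERβKO ovaries (104 ± 17.7, SD, n = 4). Per unit of heavy chain, the sum was 1.59, 1.51, 1.51, 1.53 and 1.44 in WT replicates 1 to 5 and 1.66, 1.78, 1.95 and 1.55 in ERβKO replicates 1 to 4. The ratio therefore varied little among WT ovaries and overlapped between the genotypes in ERβKO replicate 4 alone. ERβKO replicate 1, at 1.66, held Slc7a10 at 7.94 FPKM, against 0.541 to 1.97 FPKM in the other ovaries. Without Slc7a10 in the sum, the ratio of that ovary fell within the WT range as well. The pair of the other heavy chain was nearly absent: Slc3a1 was at 0.432 ± 0.17 FPKM across WT (SD, n = 5) and 0.370 ± 0.085 FPKM across ERβKO ovaries (SD, n = 4), with 26.5% of its exonic bases under the opposite-strand gene Prepl, while its cystine-carrying partner Slc7a9 had 2 to 12 counts per ovary and Slc7a13 at most 1.

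**Figure D4:**
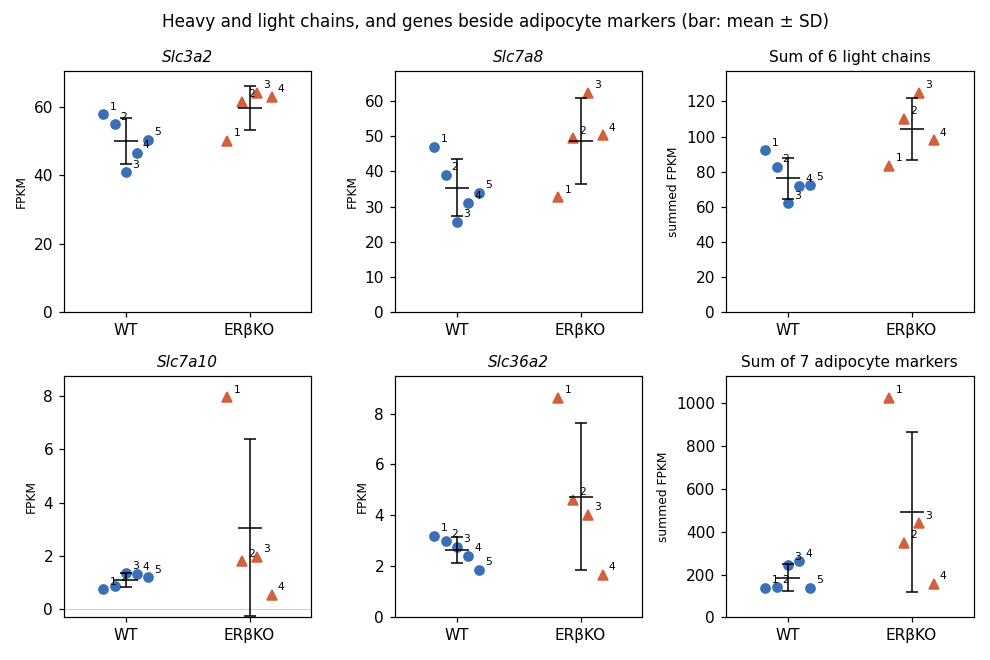
FPKM per ovary of the heavy chain Slc3a2, the light chain Slc7a8, the sum of 6 light chains, Slc7a10, Slc36a2 and the sum of 7 adipocyte markers, with replicate numbers and bars for the mean ± SD (circles WT, n = 5, triangles ERβKO, n = 4). ERβKO replicate 1 is highest for Slc7a10 (7.94 FPKM), Slc36a2 (8.61 FPKM) and the adipocyte markers (1023 FPKM) and lowest of its group for the chains.

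Slc7a10 (Asc-1), a carrier of small neutral amino acids found on white adipocytes, was at 0.762, 0.887, 1.35, 1.32 and 1.20 FPKM in the WT ovaries and 7.94, 1.81, 1.97 and 0.541 FPKM in the ERβKO ovaries. The groups overlapped, since ERβKO replicate 4 was the lowest ovary of all. The log2 fold change of 1.43 (standard error 0.55, adjusted p = 0.193 with edgeR) came to 0.55 without ERβKO replicate 1, and limma on the FPKM values gave 0.65 (pseudocount 1) and 0.85 (pseudocount 0.1). ERβKO replicate 1 also had the highest sum of adipocyte markers, but ERβKO replicate 4, at 157.1 FPKM, had a higher sum than WT replicates 1, 2 and 5 (139.1, 140.4 and 137.0 FPKM) and less Slc7a10 than each of them. The part of adipocytes in these levels was not tested. Exons of Lrp3 on the opposite strand cover 17.9% of the exonic bases of Slc7a10.

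Slc7a2, a carrier of arginine and lysine, was at 7.66, 7.02, 8.38, 4.35 and 5.59 FPKM in the WT ovaries and 5.75, 4.78, 5.69 and 4.88 FPKM in the ERβKO ovaries. By FPKM, WT replicates 1 to 3 were above all ERβKO ovaries, while WT replicate 4 was below them all. The counts were 763, 945, 1214, 708 and 624 in WT and 758, 701, 584 and 529 in ERβKO ovaries. Scaled to the total count of each library, all ERβKO ovaries were below all WT ovaries, so FPKM and counts differ on overlap. The log2 fold change was -0.52 (standard error 0.15) and the adjusted p was 0.105 in edgeR and 0.0302 in DESeq2. On the FPKM values, limma gave a smaller log2 fold change of -0.25 with a pseudocount of 1 (adjusted p = 0.403) and -0.29 with a pseudocount of 0.1 (adjusted p = 0.408). The exchangers of cationic for neutral amino acids, Slc7a6 and Slc7a7, had log2 fold changes of 0.08 (adjusted p = 0.482) and -0.22 (adjusted p = 0.545) with edgeR, and Slc7a6 lay at 10.1 to 11.4 FPKM in WT and 11.5 to 12.4 FPKM in ERβKO ovaries, groups that did not overlap.

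Slc7a11 (xCT), which imports cystine for glutathione in exchange for glutamate, is the textbook target of the amino acid response. Its promoter is shown because Slc7a11 is a named gene with 1 promoter entry, and that entry held a motif. The 2 matches to TGATGNAA, which face each other on opposite strands, are in capitals and were the ground for showing it.
Slc7a11, chr3:50443564-50443863, minus strand: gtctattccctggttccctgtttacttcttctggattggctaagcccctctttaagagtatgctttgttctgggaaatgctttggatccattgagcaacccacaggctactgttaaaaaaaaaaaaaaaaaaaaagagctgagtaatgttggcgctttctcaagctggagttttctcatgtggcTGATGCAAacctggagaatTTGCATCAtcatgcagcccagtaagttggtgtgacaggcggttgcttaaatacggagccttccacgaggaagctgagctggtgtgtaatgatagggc
Its level was 1.37, 2.82, 1.77, 1.88 and 1.53 FPKM in the WT ovaries and 2.10, 2.80, 2.38 and 2.16 FPKM in the ERβKO ovaries. All ERβKO ovaries were above 4 of the 5 WT ovaries, and WT replicate 2 was the highest of all 9. The log2 fold change was 0.32 (standard error 0.17, adjusted p = 0.337 with edgeR) and 0.50 without WT replicate 2 (adjusted p = 0.0376). Over all genes, calls also rose without that ovary, from 287 to 912.

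In the Slc1 family of glutamate and neutral amino acid carriers, 5 of 6 tested genes had log2 fold changes above 0, and none was called by either tool. Its most abundant member, the glutamine exchanger Slc1a5 (ASCT2), was at 23.7 ± 4.2 FPKM across WT (SD, n = 5) and 29.2 ± 7.9 FPKM across ERβKO ovaries (SD, n = 4). The glutamate carrier Slc1a3 (GLAST) was at 15.1 ± 3.5 and 20.5 ± 3.1 FPKM, with overlapping groups (two-sided exact permutation test, p = 0.0794). The Slc43 genes, carriers that need no ion gradient, were called by neither tool. Slc43a3 was at 15.5 ± 3.2 FPKM across WT (SD, n = 5) and 16.2 ± 1.2 FPKM across ERβKO ovaries (SD, n = 4), and the branched-chain and aromatic amino acid carrier Slc43a2 at 4.51 ± 0.87 and 3.73 ± 0.17 FPKM.

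Around the transporters, 2 of 95 tested genes of amino acid sensing and metabolism were called by edgeR, Sesn2 and Gss, which is 2.11%, near the 1.72% of all tested genes called in either direction. Of 20 genes of the amino acid response, which ATF4 switches on when amino acids are short, 1 was higher and 0 lower, beside 0.915% and 0.801% of all genes. Log2 fold changes were below 0 for 15 of the 20, beside 8385 of 16722, with a median of -0.12. The one called, Sesn2, a leucine sensor that restrains mTORC1, was at 3.62 ± 0.15 FPKM across WT (SD, n = 5) and 5.57 ± 0.79 FPKM across ERβKO ovaries (SD, n = 4). On the log2 scale Sesn2 rose by 0.60 (standard error 0.11, adjusted p = 0.0221 with edgeR). Of 10 enzymes of cystine and glutathione metabolism, 1 was lower and 0 higher, beside the same 0.801% and 0.915% of all genes (median 0.02). Glutathione synthetase, Gss, was lower, with 6.75 ± 0.56 FPKM across WT (SD, n = 5) and 4.66 ± 0.51 FPKM across ERβKO ovaries (SD, n = 4). On the log2 scale Gss fell by 0.52 (standard error 0.12, adjusted p = 0.0487 with edgeR). The levels of both genes did not overlap between the genotypes, and their adjusted p reached 0.0899 and 0.153 with single ovaries left out. DESeq2 called Ggt1, which splits glutathione outside cells, higher as well.

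The remaining lists held no gene called by edgeR. Of 28 genes through which amino acids reach mTORC1, Rragd (log2 fold change -0.30, adjusted p = 0.0671) and Wdr59 (0.37, adjusted p = 0.0712) came nearest with edgeR, the median was -0.01, and DESeq2 called Sesn3 lower. Of 14 tested enzymes of glutamine, glutamate and proline, Abat (0.31, adjusted p = 0.146) and Glul (0.28, adjusted p = 0.155) came nearest, with a median of 0.11. Of 11 branched-chain amino acid enzymes, these were Dld (-0.19, adjusted p = 0.248) and Bcat1 (-0.33, adjusted p = 0.354), with a median of -0.05. Of 12 tested amino acid and peptide carriers outside the 59 genes, they were the peptide carrier Slc15a2 (0.39, adjusted p = 0.218) and the mitochondrial glutamate carrier Slc25a22 (0.31, adjusted p = 0.233). The median of these 12, which include Slc6a20b of the Slc6 family, was 0.07.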

How the data were processed

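Whole-ovary RNA of 5 WT and 4 ERβKO mice was sequenced as stranded, polyadenylated libraries with read pairs of 150 bases. The authors trimmed reads with Trim Galore, mapped them to GRCm38 (mm10) with STAR and counted fragments per gene with featureCounts, and the deposited counts are raw. The deposited FPKM come from StringTie, run by the authors on each library. Whether counting used the strand is not given in the sources used here. The deposited coverage and TPM columns were not used.

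Tests on the counts used edgeR 4.0.16 in R 4.3.3 (filterByExpr, TMM, quasi-likelihood test, Benjamini-Hochberg adjustment over 16722 genes, common biological coefficient of variation 0.179), with DESeq2 1.42.0 and with limma 3.58.1 on log2(FPKM + 1) or log2(FPKM + 0.1) as alternatives, and tables in Python 3.11.15 with pandas 2.3.3, NumPy 2.4.6 and SciPy 1.17.1. The call thresholds are those of the study's methods. The scripts were tested on simulated counts. Positions are those of the deposited files, exon overlaps come from GENCODE M21, and promoters from RefSeq for GRCm38.p6. 3 genes (Castor1, Castor2 and Slc66a1) were matched by synonyms.

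Members and lists were chosen with earlier results of these data known. Named transporters are those called, the 2 most abundant per family, the 10 largest fold changes, those the study lists as regulated (no independent evidence), the heavy and light chains, and those over 1 FPKM whose groups do not overlap. Slc38a5, the untested genes, the genes whose substrates are given in the opening and the genes listed for a promoter motif were named outside this rule, after their values were seen. In each other list, the called genes or else the 2 with the smallest p are named. The cell type lists cover granulosa, luteal, theca, oocyte, macrophage, adipocyte and oviduct epithelium markers. p-values measure the spread between these ovaries. Some single genes are left out.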

Additional observations from a re-analysis of the deposited data

Results flagged for a closer look

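2 of 56 groups of values tested for a sample standing apart had one, where chance gives about 1 in 20. Slc6a9 was at 7.65 FPKM in ERβKO replicate 3, below the other 3 ERβKO ovaries at 8.25 to 8.32 FPKM. Slc7a9 was at 0.207 FPKM in WT replicate 2, above the other 4 WT ovaries at 0.0931 to 0.116 FPKM, on 11 counts against 4 to 6.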

How the results depend on the processing

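The 349 log2 fold changes recomputed for 19 named genes under 19 alternatives kept their sign, 313 on the same side of the threshold, 24 losing it and 12 gaining it. Against 1 transporter called (0 higher, 1 lower) and 2 other amino acid genes (1 higher, 1 lower), DESeq2 gave 5 (2 higher, 3 lower) and 4 (2 higher, 2 lower). limma on log2(FPKM + 1) with no filter gave 0 and 0, as did leaving out the libraries numbered from 200, with 0 in each direction. No filter on low counts gave 2 (both lower) and 1 (0 lower), and the adjusted p alone 3 transporters. Slc38a3 then stood at -2.40 (adjusted p = 0.0579) with unfiltered limma and at -3.03 (adjusted p = 0.0650) without the libraries numbered from 200. With each ovary left out in turn, 1 to 5 transporters were called (0 to 3 higher, 1 to 2 lower) and 0 to 6 other genes (0 to 4 higher, 0 to 2 lower). The highest counts, 5 and 6, came without WT replicate 2. 2 transporters were called without WT replicate 3. Calls over all genes moved too, from 287 to 912 without WT replicate 2 and 354 without WT replicate 3. They were 805 with DESeq2 and 51 without the libraries numbered from 200. Of the other genes 0 were called without WT replicate 1, WT replicate 5, ERβKO replicate 2 or ERβKO replicate 4, and 1 without WT replicate 4. The causes were not tested.

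With the replicate number as a block, 1 transporter (Slc38a3) and 0 other genes were called (0 higher, 0 lower), and 155 of all genes against 287. Deviations of same-numbered ovaries correlated at 0.130, 0.0937, -0.0355 and -0.0072, so no pairing by number was seen, though such correlations cannot exclude one. The 13 untested genes, with at most 13 counts in any ovary, were left out of the main fit, which gives no answer on whether they differ.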
